A study of Homo sapiens with 6 samples.

Results

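FN1 encodes fibronectin, a secreted glycoprotein of the extracellular matrix. FN1 is 1 of 19775 genes with a probe set of their own here, and it was followed through each of the 7 probe sets, of 54675 on each of 6 Affymetrix arrays, that the platform annotation gives to FN1 alone. All arrays held RNA of SAS, a human cell line from a squamous carcinoma of the mouth. Cells were transfected with an siRNA against CYLD (siCYLD) or a control siRNA (siCtrl), grown for 2 days and then kept for 48 h in medium without serum, where an ALK5 inhibitor or DMSO was added; ALK5 is the type I receptor for TGF-β. The groups, taken from the array titles, were siCYLD with inhibitor (1 array), siCYLD with DMSO (2 arrays, called untreated), siCtrl with inhibitor (1 array) and siCtrl with DMSO (2 arrays, called untreated). The labels do not say which or how many siRNA sequences were used, or whether duplicates came from separate cultures, so that spreads and p-values describe only the variation between these arrays. FN1 was picked with its values in these arrays already known, its high level in untreated siCYLD cells and low level with the inhibitor included. Its levels and differences are therefore given as a description, with no test.

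Cells secrete fibronectin as a dimer and stretch it into fibrils, mainly through the integrin formed by ITGA5 and ITGB1, which binds the RGD sequence of the protein. Splicing of its extra domains gives plasma and cellular forms, and TGF-β, which signals through ALK5 and the SMAD proteins, raises FN1 transcription in many cell types. In carcinoma cells FN1 is widely used as a mesenchymal marker. CYLD, the target of the siRNA, is a deubiquitinase that restrains NF-κB signalling.

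By RefSeq, FN1 lies on the minus strand of chromosome 2 at 215360865 to 215436068 (GRCh38.p14) and has 18 transcripts. The end of the gene overlaps ATIC, a purine synthesis gene on the plus strand, over 7728 bases. The divergent long noncoding gene FN1-DT has 1 of its 2 listed starts 239 bases before that of FN1. The 250 bases before the FN1 start, chr2:215436069-215436318, are shown 5′ to 3′ on the minus strand, because CREB1, ATF2 and other factors measured on the same arrays are known to act on this region. Capitals mark a cAMP response element (TGACGTCA), a CCAAT box and a TATA box (TATAAG).
FN1 promoter: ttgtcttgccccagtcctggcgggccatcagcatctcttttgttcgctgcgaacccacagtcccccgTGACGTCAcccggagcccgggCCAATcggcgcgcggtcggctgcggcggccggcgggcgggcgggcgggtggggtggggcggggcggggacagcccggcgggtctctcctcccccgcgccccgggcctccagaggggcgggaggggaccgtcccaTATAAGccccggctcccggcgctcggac
The first bases of these elements stood 183, 162 and 28 bases before the start. In the same window of 27305 genes, on either strand, the cAMP response element was present in 1.8%, CCAAT in 33% and TATAAG in 5.1%. GGGCGG, the GC box, occurred 6 times in FN1, with overlapping copies, and at least once in 42.3% of genes. The letters of the AP-1 motif (TGANTCA, in 6.6% of genes), of the SMAD motif (CAGAC, in 37.8%) and of its palindrome (GTCTAGAC, in 0.2%) were not found in these 250 bases. The window was 76.4% G and C, against a median of 58% over all genes, and held 32 CpG, against a median of 11.

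The deposited MAS5 signals, on a linear scale, had the same trimmed mean of 499.9 on all 6 arrays. CYLD was lower in siCYLD arrays at each of its 4 probe sets that passed the expression filter, with 1 of them (221903_s_at) at 77.2 and 125 in siCYLD and 485 and 550 in siCtrl, and at 71.1 and 421 in the inhibitor pair. For siCYLD replicate 1 and siCtrl replicate 2 the title and the source name gave different siRNAs, and groups followed the titles. At 221903_s_at these arrays read 77.2 and 550, each on the side of its title. The epithelial markers CDH1 and DSP read above 10000 on every array, while KRT14, a basal keratin, read 62.3 to 148. Some epithelial markers moved with the conditions. KRT5, the basal partner of KRT14, rose with the inhibitor to 5595 in siCYLD, against 900 and 968 untreated (2.56), and to 12525 in siCtrl, against 1094 and 1245 untreated (3.41). The desmosomal genes DSG3 and DSP had -0.64 and 0.66 with the siRNA and -0.67 and -0.61 with the inhibitor in siCYLD, all called with limma. Of 8 fibroblast markers 4 passed the filter and 3 stayed below it on every array. Their summed signal was 905, 939 and 915 in siCYLD arrays, against 876, 783 and 742 in siCtrl arrays, the inhibitor array last in each. A sum over 6 leukocyte and endothelial markers was 512, 354 and 995 in siCYLD arrays and 433, 515 and 1084 in siCtrl arrays. The part of these markers in the FN1 values was not tested.

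In untreated cells FN1 was higher with the CYLD siRNA by a factor of more than 100 at 4 of its probe sets. Probe set 210495_x_at, which represents the gene below because it had the highest mean, read 20866 and 20244 in siCYLD arrays (20555 ± 439, SD, n = 2), against 226 and 177 in siCtrl arrays (201 ± 34.4, SD, n = 2). The groups lay far apart, and the ratio of means was 102. Differences below are of log2(signal + 16.06), a scale on which changes near the floor are understated. On it the FN1 difference was 6.57, and duplicates were 0.04 apart in siCYLD and 0.32 apart in siCtrl.

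The other 3 bright probe sets gave the same picture. Probe set 211719_x_at read 21305 and 21830 in siCYLD and 128 and 162 in siCtrl, a difference of 7.07. Probe set 212464_s_at read 22305 and 20945 in siCYLD and 196 and 162 in siCtrl, a difference of 6.80. In both, as in 210495_x_at, siCtrl duplicates differed more on the log2 scale than siCYLD duplicates did. Probe set 216442_x_at had the lowest siCtrl signals of the 4, at 37.1 and 45.5, with 18743 and 22369 in siCYLD, a difference of 8.48. These siCtrl signals lie below the median of all values, and the size of that difference is therefore only approximate. In the names, x marks probes that may also bind other transcripts and s probes shared by several transcripts, which may be of different genes. All 4 bright probe sets carry such a suffix.

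The remaining 3 probe sets stayed dim in every condition. Probe set 214701_s_at read 151 and 90.9 in siCYLD and 30.2 and 29.6 in siCtrl, a difference of 1.54 with siCYLD duplicates 0.64 apart. Probe set 1558199_at read 97.6 and 105 in siCYLD and 54.2 and 44.8 in siCtrl, a difference of 0.84. The duplicates of these did not overlap between the groups. Probe set 214702_at, which the annotation ties to the same sequence entry as 214701_s_at, read 34.2 and 21.9 in siCYLD and 39.6 and 0.901 in siCtrl. The siCtrl duplicates there were 1.72 apart, more than the difference of 0.51 between groups.

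In all, 6 of 7 FN1 probe sets had both siCYLD arrays above both siCtrl arrays, as did 23.7% of all probe sets with 1 gene symbol and 26.4% of those that passed the filter. To pass that filter a probe set needed 1 group mean above a signal of 79.3, the median of all values, and 6 of 7 FN1 probe sets did. Of those, 214701_s_at and 1558199_at passed through untreated siCYLD alone, so the filter favoured a difference there. Among 24537 kept probe sets the 4 bright ones ranked 1 to 4 by how far untreated siCYLD stood above siCtrl. A log2 difference of at least 1 was seen for 5 FN1 probe sets, against 2.38% of kept probe sets; since FN1 was chosen for it, nothing is read from this share. In RNA of whole cultures, more cells with FN1 transcript and more transcript per cell cannot be told apart.

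**Figure D1:**
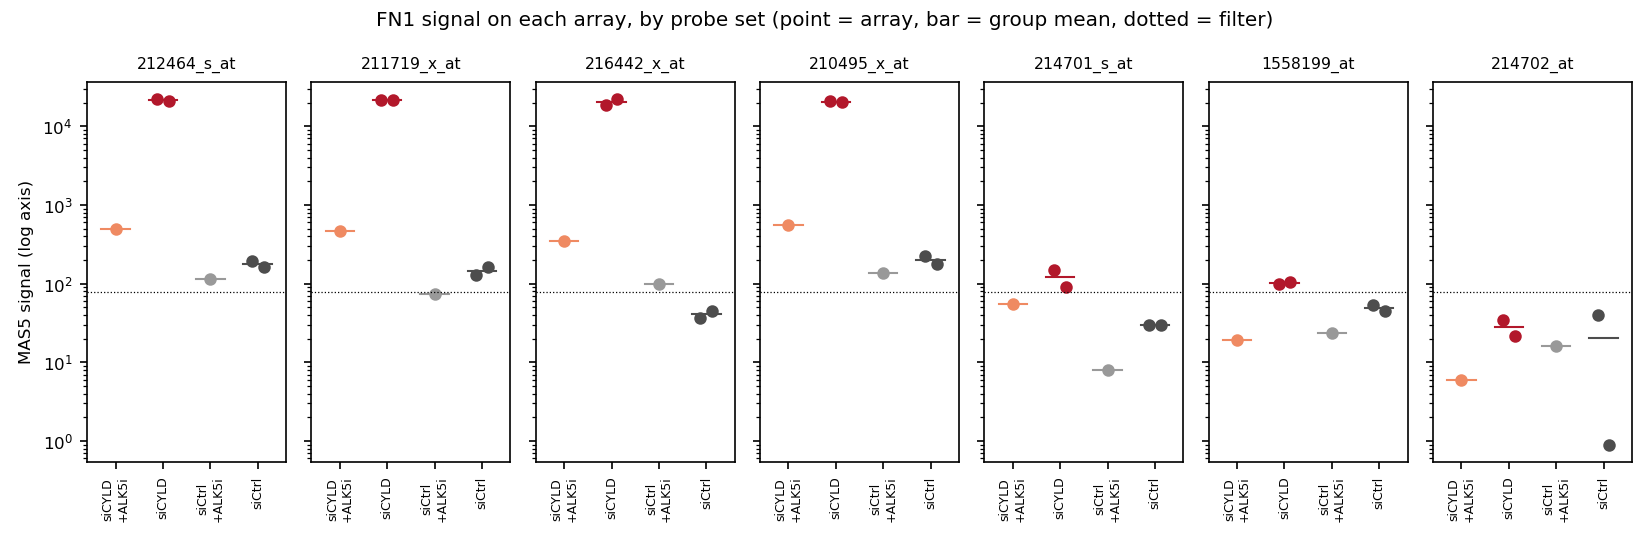
MAS5 signal of the 7 FN1 probe sets on each array (log axis), with 1 panel per probe set, points for arrays, bars for group means and a dotted line at the filter signal of 79.3. In the 4 panels on the left the untreated siCYLD arrays lie between 18743 and 22369 and all other arrays at or below 558, whereas the 3 panels on the right stay at or below 151.

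With the ALK5 inhibitor, the bright FN1 signals of siCYLD cells stood at 1.70% to 2.71% of their untreated level. Probe set 210495_x_at read 558 in the siCYLD inhibitor array, against 20866 and 20244 in untreated siCYLD, a difference of -5.16. The value was 467 with inhibitor for 211719_x_at (-5.48), 494 for 212464_s_at (-5.41) and 350 for 216442_x_at (-5.81). Each inhibitor group is 1 array, so these differences carry no replicate check on that side. They exceed the gaps between untreated siCYLD duplicates, which were 0.04 to 0.25 for these 4 probe sets. Of the dim probe sets, 1558199_at read 19.1 with inhibitor (-1.74), 214701_s_at 55.1 (-0.91) and 214702_at 5.93 (-0.99). A difference of -1 or lower was seen for 5 of the 6 kept FN1 probe sets, against 2.85% of kept probe sets, and by its size the 4 bright ones ranked 1, 2, 3 and 5. Nothing is read from this share either, since FN1 was chosen for it and 1558199_at passed the filter through untreated siCYLD alone.

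In siCtrl cells the inhibitor went with much smaller differences, and their sign was not shared. Probe set 210495_x_at read 137 with inhibitor, against 226 and 177 in untreated siCtrl, a difference of -0.49. The differences were -0.82 for 211719_x_at, -0.56 for 212464_s_at, -0.94 for 214701_s_at and -0.71 for 1558199_at. In contrast, 216442_x_at read 99.8 with inhibitor, above both untreated siCtrl arrays, a difference of 1.02. No kept FN1 probe set was lower by 1 or more, as 1.83% of kept probe sets were, a share so low that this says little. For 210495_x_at, 211719_x_at and 212464_s_at the shift was larger than the gap of 0.25 to 0.32 between siCtrl duplicates, but it rests on a single inhibitor array.

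At its 4 bright probe sets FN1 was still higher with the CYLD siRNA when ALK5 was inhibited, by less than in untreated cells. In the inhibitor pair 210495_x_at read 558 in siCYLD and 137 in siCtrl, a ratio of 4.06 and a difference of 1.90. The ratios were 6.24 for 211719_x_at, 4.27 for 212464_s_at and 3.50 for 216442_x_at. The siCYLD inhibitor array was thus above untreated siCtrl too, by 2.77-fold, 3.22-fold and 2.76-fold for 210495_x_at, 211719_x_at and 212464_s_at, and 216442_x_at lay above its dim siCtrl signals too. A difference of at least 1 in the inhibitor pair was seen for 5 of 6 kept FN1 probe sets, against 3.65% of kept probe sets, without replicates in either group. Among the dim probe sets, 214701_s_at read 55.1 and 7.88, the second value below the offset, whereas 1558199_at, at 19.1 in siCYLD and 23.9 in siCtrl, and 214702_at, at 5.93 and 16.1, were lower in siCYLD (-0.19 and -0.55).

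The inhibitor difference in siCYLD minus that in siCtrl was -4.67 for 210495_x_at, -4.66 for 211719_x_at, -4.85 for 212464_s_at and -6.83 for 216442_x_at. It was -1.03 for 1558199_at, -1.05 for 214702_at and 0.03 for 214701_s_at. The last of these was the only FN1 probe set with about the same siCYLD difference in both conditions, 1.57 with inhibitor and 1.54 without. From lowest to highest, the order of the 4 conditions was siCtrl with inhibitor, siCtrl, siCYLD with inhibitor, siCYLD for 210495_x_at, 211719_x_at, 212464_s_at and 214701_s_at. For 216442_x_at both siCtrl conditions changed places. In 1558199_at and 214702_at, siCYLD with inhibitor was the lowest condition.

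**Figure D2:**
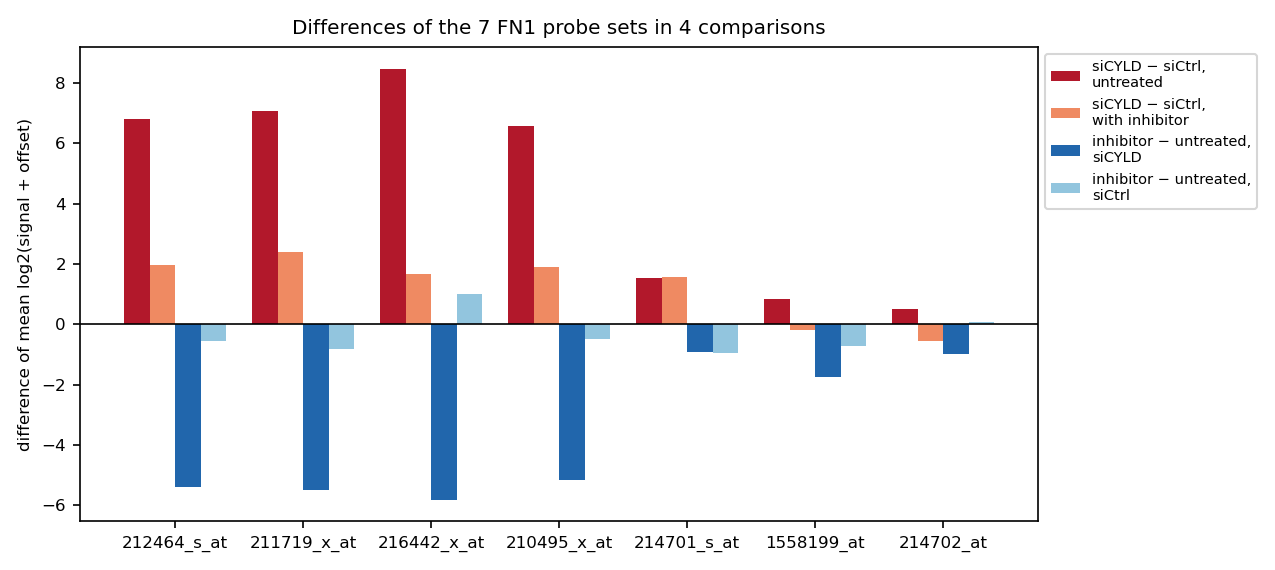
Differences of mean log2(signal + 16.06) for the 7 FN1 probe sets, with 1 bar for each of 4 comparisons; the inhibitor groups are single arrays and no error is drawn. The 4 probe sets on the left share differences of 6.57 to 8.48 (siCYLD minus siCtrl, untreated) and -5.16 to -5.81 (inhibitor minus untreated, siCYLD), while the 3 on the right differ in size and, for some comparisons, in sign.

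A measure of RNA integrity moved with the siRNA. The ratio of the 3′ to the 5′ control probe sets of ACTB was 2.26, 2.48 and 2.38 in siCYLD arrays, against 3.41, 3.21 and 3.67 in siCtrl arrays, the inhibitor array last in each. The GAPDH ratio overlapped, at 1.80, 1.91 and 1.97 in siCYLD and 2.14, 1.79 and 1.87 in siCtrl. The part of RNA integrity in the FN1 values was not tested.

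The genes next to FN1 did not share its profile. Within 500 kb, ATIC, ABCA12 and LINC00607 were on the array. ATIC read 1950 and 1933 in untreated siCYLD and 2310 and 2251 in siCtrl, a difference of -0.23 that was not called (adjusted p = 0.127, limma). With the inhibitor it rose by 0.50 in siCYLD cells (adjusted p = 0.0114), where FN1 was lower. ABCA12, a lipid transporter of keratinocytes, and LINC00607 stayed below the filter, at 12.4 to 68.2 and 1.60 to 58.6. FN1-DT was not analysed here.

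The 8 genes whose profile over the 6 arrays was most like that of 210495_x_at were PRDM1, MOB3B, PODXL, MMP9, PMEPA1, MSC-AS1, IFNE and COL7A1. Likeness was Pearson's r of log2 values, among 398 other genes whose group means spanned at least 2, and r ran from 0.976 to 0.998. The 6 points are 4 conditions with 2 pairs of duplicates, so r mostly reflects the contrast of untreated siCYLD with the rest. PRDM1, a transcriptional repressor that acts in terminal differentiation, read 111 in siCYLD with inhibitor, 393 and 437 in untreated siCYLD, 71.2 in siCtrl with inhibitor, and 87 and 79.6 in untreated siCtrl. Its other kept probe set had -0.56 between untreated siCYLD and siCtrl, against 2.12 here. PMEPA1, whose product restrains TGF-β signals as part of a feedback loop, read 377 in siCYLD with inhibitor, 5234 and 5673 in untreated siCYLD, 170 in siCtrl with inhibitor, and 417 and 403 in untreated siCtrl. The sialomucin gene PODXL read 374 with siCYLD and inhibitor, above both untreated siCtrl arrays as FN1 did, and IFNE, an interferon gene of epithelia, read 411. COL7A1, the anchoring fibril collagen, read 928 and 929 in the siCYLD and siCtrl inhibitor arrays, which left no difference between them. These genes were chosen by their values, which carry no test.

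**Figure D3:**
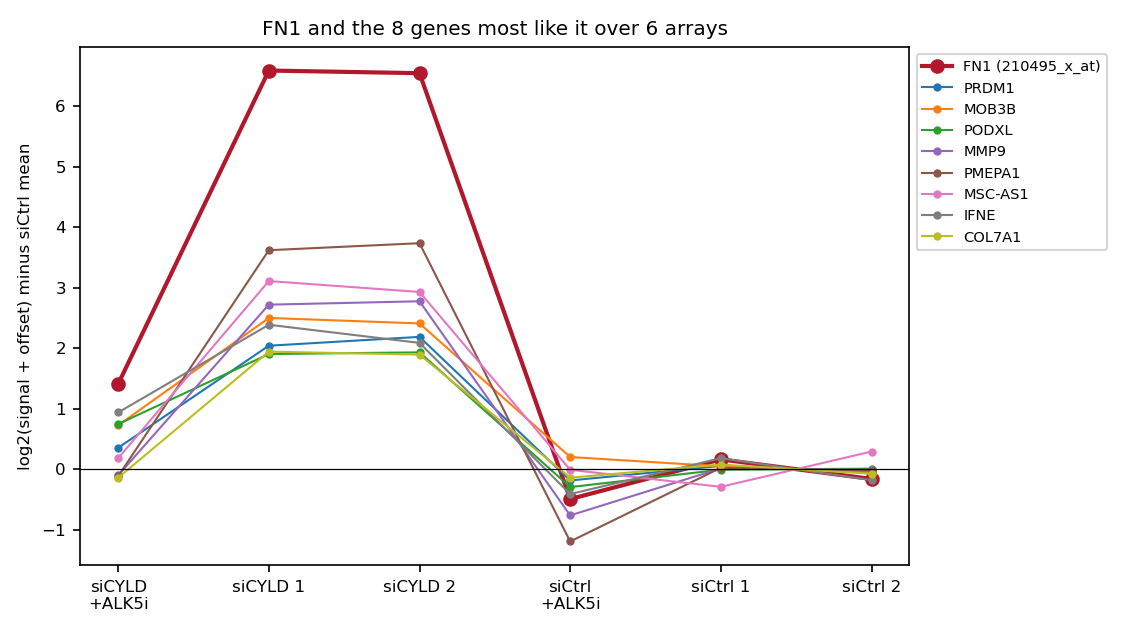
Log2(signal + 16.06) of FN1 (210495_x_at) and of the 8 genes most like it, for each array, minus the mean of the untreated siCtrl arrays. FN1 spans 7.07 between its group means and the others 2.06 to 4.88; in the siCYLD inhibitor array COL7A1, MMP9 and PMEPA1 lie just below the siCtrl mean and FN1 and the other 5 genes above it.

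Genes that work with fibronectin were taken from 6 lists of 131 genes, of which 110 were tested among 12935 genes with limma. In untreated cells 38 rose and 13 fell with the CYLD siRNA and 59 were not called. That is 34.5% higher and 11.8% lower, against 9.49% higher and 11.8% lower among all genes, of which 21.3% were called. The lists were chosen with earlier results of these data known, so nothing is read from these shares or from those below. The median difference was 0.15, against -0.04 over all genes. With the inhibitor in siCYLD cells 16 rose (14.5%) and 27 fell (24.5%), against 12.2% and 10.2% among all genes, of which 22.4% were called, and the medians were -0.06 and 0.02. Both comparisons use the untreated siCYLD arrays, so a chance deviation there moves them in opposite directions. Of the 51 genes called with the siRNA, 17 kept the call under each of 11 or 12 alternatives, an additive model given below included. Of the 43 called with the inhibitor, 20 kept it under each of 9 or 10 alternatives. Grouping by source names, which mixes the titled siRNAs and is not among these, called 0 list genes with limma (2 at unadjusted p under 0.05). When 1 array was left out, 18 of the 51 and 9 of the 43 lost the call at least once. Without both arrays of conflicting labels an additive model called 24 list genes with the siRNA, and ITGAV (0.53) and COL5A1 (0.47) were not among them. Its siRNA difference is an average over untreated cells and the inhibitor pair, so it cannot check the untreated difference alone. In the inhibitor pair ITGAV and COL5A1 had 0.16 and -0.20. The untreated arrays left read 3885 in siCYLD and 2063 in siCtrl for ITGAV, and 973 and 429 for COL5A1. COL5A1, ITGAV, IGFBP3 and LTBP2 lost the siRNA call in no other alternative.

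Of 13 receptors and co-receptors of fibronectin, 8 rose with the CYLD siRNA (61.5%) and 0 fell, with a median of 0.38. At unadjusted p under 0.05, 1 was lower (limma). Over all genes 9.49% rose and 11.8% fell. ITGA5, the chain specific for fibronectin, read 2270 and 2878 in siCYLD and 1314 and 1266 in siCtrl. It rose by 0.98 ± 0.13 (log2 ± standard error, adjusted p = 0.000122), and with the inhibitor in siCYLD cells, at 1240, it fell by 1.03 ± 0.16 (adjusted p = 0.000506). ITGAV, which pairs with several β chains to bind RGD, had 0.84 ± 0.10 with the siRNA and -0.86 ± 0.12 with the inhibitor (adjusted p = 6.25e-05 and 0.000345). The hyaluronan receptor gene CD44, which read 25375 and 22959 in siCYLD and 12177 and 10655 in siCtrl, rose by 1.08 ± 0.09 (adjusted p = 2.83e-06). Under the inhibitor it read 23070 in siCYLD cells, with a difference of -0.07 that was not called. The urokinase receptor gene PLAUR rose by 0.68. ITGB1 (0.31), SDC4 (0.33) and SDC3 (0.48) were also called. The ITGB1 and SDC4 calls were lost without siCtrl replicate 1 (adjusted p = 0.108 and 0.0965) and without siCYLD replicate 1 (0.194 and 0.249). The SDC3 call was lost without siCtrl replicate 1 (0.091), siCtrl replicate 2 (0.113) and siCYLD replicate 2 (0.26). Other probe sets of ITGB1 ran from -0.43 to 0.45, and that of SDC3 was at -0.56. With the inhibitor in siCYLD cells ITGB8 rose by 1.01 ± 0.12 and ITGA4 by 0.96 ± 0.21, a call lost for the mean of its probe sets (adjusted p = 0.0673). In siCtrl cells the inhibitor difference was 0.83 for ITGB8 and -0.59 for ITGA5, both called, and 0.64 for ITGA4, not called. The difference between the siRNAs in inhibitor response was called for 0 of 13 receptors (2 at unadjusted p under 0.05), ITGA5 and ITGAV at -0.44 and -0.68 included. Of all genes only 1.67% were called for it, so 0 of 13 says little.

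In the adhesion complex, which couples integrins to actin, 8 of 20 genes rose with the siRNA (40.0%) and 1 fell (5.0%). Over all genes these shares were 9.49% and 11.8%. Zyxin (ZYX) read 2119 and 2081 in siCYLD and 1272 and 1326 in siCtrl, a rise of 0.69 ± 0.11 (adjusted p = 0.000563). The tensin gene TNS1 rose by 1.06 and talin (TLN1) by 0.95, and both calls were lost without x and s probe sets (0.45 and -0.02). Paxillin (PXN) rose by 0.68, a call lost for the mean of its probe sets (0.29), and, with the inhibitor in siCYLD cells, fell by 1.01 ± 0.11 (adjusted p = 2.58e-05). Another tensin gene, TNS3, went the other way, at -0.45 with the siRNA and 1.26 ± 0.12 with the inhibitor. An additive model without both arrays of conflicting labels gave 0.02 for the siRNA. That model averages over untreated cells and the inhibitor pair, where TNS3 was higher in siCYLD (0.56). The untreated arrays left in it read 3497 in siCYLD and 5048 in siCtrl. With the inhibitor 2 of 20 rose and 5 fell.

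Matrix partners of fibronectin divided with the siRNA, with 8 of 22 higher (36.4%), 3 lower (13.6%) and a median of 0.18. The shares over all genes were 9.49% and 11.8%. COL7A1, which read 3993 and 3859 in siCYLD and 1082 and 972 in siCtrl, rose by 1.92 ± 0.11 (adjusted p = 1.79e-07). COL5A1, a fibril collagen chain, rose by 1.35 ± 0.15, and TNC, which encodes the anti-adhesive matrix protein tenascin-C, by 1.15 ± 0.09. FBLN1, whose product fibulin-1 binds fibronectin, read 249 and 212 in siCYLD and 538 and 540 in siCtrl, and fell by 1.17 ± 0.15 (adjusted p = 9.33e-05). SPARC fell by 0.91 ± 0.10. TGM2, the transglutaminase that crosslinks fibronectin, had -0.32 with a call that was lost without any 1 of the 4 untreated arrays (adjusted p of 0.0502 to 0.222). With the inhibitor in siCYLD cells 5 of 22 rose (22.7%) and 7 fell (31.8%), against 12.2% and 10.2% of all genes. COL7A1 fell by 2.06 ± 0.14 and COL5A1 fell by 1.77 ± 0.18, both near the siCtrl level (928 and 291). CCN2, a matricellular growth factor gene, fell by 2.00 ± 0.18, and its difference with the siRNA was 0.10. LOX and LOXL2, which crosslink collagen, rose by 1.48 ± 0.25 and 1.13 ± 0.15.

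Among proteases known to cleave fibronectin, 8 of 17 rose with the siRNA (47.1%) and 0 fell, with a median of 0.42. At unadjusted p under 0.05, 1 was lower (limma). Over all genes 9.49% rose and 11.8% fell. MMP9, a gelatinase, read 1004 and 1044 in siCYLD and 140 and 137 in siCtrl, a rise of 2.75 ± 0.18 (adjusted p = 4.74e-07). The urokinase gene PLAU rose by 1.47 ± 0.09 and the cathepsin gene CTSB by 1.41 ± 0.10. MMP1 and MMP10 rose by 2.75 ± 0.41 and 2.43 ± 0.39. Their siCtrl signals lay near or below the offset, at 1.23 and 22 for MMP1. In siCYLD cells MMP9 fell by 2.85 ± 0.22, at 128. FAP, a serine protease gene, had -2.55 (adjusted p = 0.00892), at 9.37 with inhibitor. MMP7 had -1.58, at 8.38, a call lost without siCYLD replicate 1 (adjusted p = 0.104) and with the larger offset (-0.74). CTSB fell by 1.33 ± 0.12. In the same array MMP1 rose by 2.81 ± 0.50, at 1187, and MMP10 by 2.78 ± 0.47, at 717. In all, 4 of 17 rose (23.5%) and 6 fell (35.3%) with the inhibitor in siCYLD cells, against 12.2% and 10.2% of all genes.

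Splicing regulators, some of which act on the extra domains of FN1, showed smaller shifts, with a median of -0.18 for the siRNA. With the siRNA 6 of 18 fell (33.3%) and 0 rose (0 at unadjusted p under 0.05, limma). Over all genes 11.8% fell and 9.49% rose. MBNL1 had -0.62, MBNL2 -0.56 and SRSF3, which encodes a serine and arginine rich splicing factor, -0.48. Without x and s probe sets MBNL1 (-0.16) and SRSF3 (-0.41) were not called. SRSF3 read 3545 and 3358 in siCYLD and 4751 and 4865 in siCtrl (adjusted p = 0.00286). TRA2B (-0.38) and the epithelial splicing regulator ESRP1 (-0.34) were called, but the TRA2B call was lost without siCYLD replicate 2 (adjusted p = 0.0847) and the ESRP1 call without siCtrl replicate 1 (0.0672) or siCYLD replicate 1 (0.0814). SRSF1 had -0.17 (adjusted p = 0.16). With the inhibitor in siCYLD cells 0 rose (2 at unadjusted p under 0.05) and 3 fell (16.7%). The shares over all genes were 12.2% and 10.2%. Whether any FN1 probe set reads the spliced extra domains was not determined, since probe sequences were not used here.

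Of 20 transcription factors linked to the FN1 promoter or its regulation, 6 rose (30.0%) and 3 fell (15.0%) with the siRNA. Over all genes these shares were 9.49% and 11.8%. FOSL1, an AP-1 subunit, read 5308 and 5953 in siCYLD and 2922 and 2739 in siCtrl, a rise of 0.99 ± 0.10 (adjusted p = 1.22e-05). NFKB1 rose by 0.86 ± 0.11 and SMAD3, which carries the signal of ALK5 to genes, by 0.74 ± 0.09. TWIST1, a factor of mesenchymal transition, fell by 0.76 ± 0.12. CREB1 and ATF2, which bind the cAMP response element, had -0.25 and 0.15 and were not called (adjusted p = 0.189 and 0.623). With the inhibitor in siCYLD cells 2 rose and 4 fell. ATF2 fell by 0.97 (adjusted p = 0.00875), a call lost for the mean of its probe sets (-0.55, adjusted p = 0.0748). FOSL1 rose by 0.83 ± 0.12, at 9986, and SMAD3 by 0.71 ± 0.11, a call lost for the mean of its probe sets (0.24). EGR1, an immediate early factor, fell by 1.85 ± 0.10, at 5961, and FOS by 1.76 ± 0.17.

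**Figure D4:**
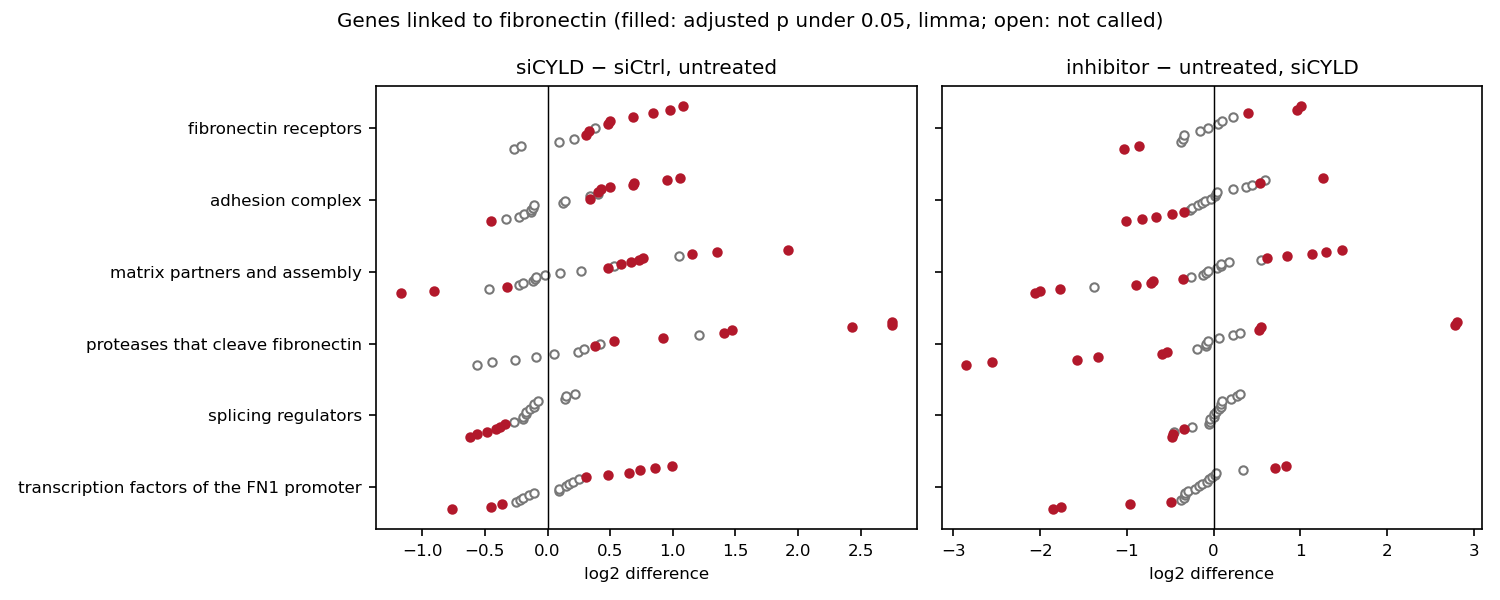
Log2 differences of the 110 tested genes linked to fibronectin, by list, for siCYLD minus siCtrl in untreated cells (left) and inhibitor minus untreated in siCYLD cells (right); filled points were called with limma and open points were not. Receptors and proteases have 8 called genes each on the higher side at left and 0 on the lower side. Splicing regulators have 6 called genes there, all lower. Of all genes 9.49% were called higher and 11.8% lower in that comparison.

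In siCtrl cells the inhibitor called 14 of the 110 genes higher and 10 lower, against 5.02% and 4.34% of all genes, of which 9.36% were called. Among the lower list genes FOS had -3.26, EGR1 -2.53 and CCN2 -1.22, and among the higher ones VCAN had 1.90 and HTRA1 1.74. LOX (1.23), MMP10 (1.73), ITGB8 (0.83), ITGA5 (-0.59) and PXN (-0.54) were called in siCtrl in the same direction as in siCYLD. A difference in inhibitor response between the siRNAs was called for 13 of the 110, 4 higher and 9 lower, against 0.982% and 0.688% of all genes, of which 1.67% were called. Of these 13 calls, 0 held without the intensity trend.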

How the data were processed

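The deposited values are intensities, 1 MAS5 signal per probe set and array, per the submitters' processing notes; its version and settings were not stated there. FN1 probe sets and gene lists were chosen with earlier results of these data known. Each signal was turned into log2(signal + 16.06), where 16.06 is the 20th percentile over every array. Of 54675 probe sets, 41091 had 1 gene symbol. A filter removed probe sets with no group mean above the overall median (24537 kept), and the brightest kept probe set represented a gene (12935 genes). limma 3.58.1 in R 4.3.3 fitted 4 group means with an intensity trend (2 residual and 10.9 prior degrees of freedom), was tested on simulated data and used Benjamini-Hochberg adjustment over all genes, two-sided, with calls at an adjusted p under 0.05. For each inhibitor group, with 1 array, the spread came from the duplicates of the other groups. Array number limits the precision. Named were all FN1 probe sets, list genes with the largest called differences or a direct link to fibronectin, the 8 genes most like FN1, and CYLD. Neighbours were taken by position. Other offsets, scalings, filters, probe set choices, moderation, groupings and left-out arrays were tried. Promoter sequence is from RefSeq. Figures were drawn with matplotlib 3.10.9.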

Additional observations from a re-analysis of the deposited data

Results flagged for a closer look

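The inhibitor response differed between siCYLD and siCtrl cells, by the interaction test of limma, for 13 genes of the fibronectin lists. The values are the inhibitor difference in siCYLD minus that in siCtrl, on the log2 scale, and each inhibitor group is 1 array. Among matrix partners the value was -1.92 for COL7A1 (adjusted p = 0.000254), -1.57 for THBS1, -1.56 for COL5A1, -1.27 for IGFBP3 and 1.40 for LOXL2. THBS1, which encodes thrombospondin-1, read 4749 with inhibitor against 7868 and 7547 untreated in siCYLD. In siCtrl it read 15112 with inhibitor against 8578 and 7865 untreated, so that the directions were opposite at this probe set. For the inhibitor in siCYLD cells its 6 other kept probe sets ran from -1.3 to 1.4. The mean of its probe sets had -0.16 there and was not called. The interaction call of THBS1 was lost for the mean of its probe sets (-1.0, adjusted p = 0.121) and without x and s probe sets (-0.96, adjusted p = 0.178). The calls of COL5A1 (0.0723), EGR1 (0.0896) and TNS4 (0.0904) were also lost for the mean of their probe sets. Among proteases the value was -2.09 for MMP9, -1.22 for HTRA1 and -0.98 for CTSB, whose value was -0.69 for the mean of its probe sets and -0.46 without x and s probe sets, neither of them called (adjusted p = 0.104 and 0.238). Among adhesion genes it was 1.01 for TNS3 and -1.06 for TNS4, whose call was lost without siCtrl replicate 1 (adjusted p = 0.0513). Among transcription factors it was 1.5 for FOS, 0.68 for EGR1 and -1.14 for SNAI2. Each of the 13 calls was lost without the intensity trend. With no filter the calls of COL5A1, CTSB, EGR1, FOS, LOXL2, MMP9, TNS3 and TNS4 were lost. The TNS4 call held in 4 of 10 alternatives. All 13 kept their sign in the alternatives run.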

How the results depend on the processing

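For 210495_x_at the untreated siCYLD minus siCtrl difference of 6.57 was 6.28 with an offset 4 times as large, 5.22 for the mean of kept probe sets, 6.39 without both arrays of conflicting labels and 0.84 without x and s probe sets, where 1558199_at represented FN1. The inhibitor pair difference of 1.90 was 1.63, 1.55 and, reversed, -0.19 under the offset, mean and suffix choices. The inhibitor difference in siCYLD was -4.08 (mean) and -1.74 (suffix), that in siCtrl -0.71 (suffix), and the interaction -3.67 (mean) and -1.03 (suffix). Grouped by source names, which puts 1 array of each title in each group, the untreated difference was -0.18, and limma called 0 genes and 0 list genes (79 and 2 at unadjusted p under 0.05). Without 1 untreated array at a time the ranges were 6.41 to 6.73 for the siRNA, -5.14 to -5.19 and -0.33 to -0.66 for the inhibitor in siCYLD and siCtrl, -4.51 to -4.83 for the interaction, and 1.90 for the inhibitor pair, which uses none of them. The siRNA called 2757 genes, 1219 without the intensity trend and 1052 in an additive model without both conflicting arrays. The inhibitor called 2900 genes in siCYLD, 1819 with no filter and 1055 without the trend, and 1211 in siCtrl, 478 with no filter and 35 without the trend. Of list genes, 51 were called with the siRNA, 28 without the trend and 24 in that additive model, and 43 with the inhibitor in siCYLD, 25 without the trend and 28 without x and s probe sets. Leaving out 1 array gave 2151 to 2652, 2457 to 3426, 843 to 1687, 41 to 50 and 37 to 45 calls for these 5 counts. With the replicate block the untreated difference was 6.57, with 3693 genes and 59 list genes called; deviations of equally numbered arrays correlated at 0.045, so the numbers are not taken to pair arrays. The additive models and the fit of 4 untreated arrays were chosen after the data were seen. Additive models average the siRNA difference over untreated and inhibitor arrays, so their counts are not of the untreated difference alone. In all, 84 of the alternative values stayed within the duplicate spread or within 1.5 times the count, 23 moved further and 2 reversed sign. Some of the 84 could not move, such as the inhibitor pair when an untreated array was left out. Other causes were not tested.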
